A study of Camellia sinensis with 24 samples.

Results

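The serine carboxypeptidase-like (SCPL) proteins and the BAHD acyltransferases of tea roots were taken as all genes whose deposited description carries the Pfam domain of serine carboxypeptidases or that of the transferase family that defines BAHD enzymes. This gave 285 of the 48505 genes in the table, 105 SCPL and 180 BAHD genes, and no gene carried both domains. The Pfam description names a family and not a substrate, so no member could be assigned to a particular acylation reaction. The 2 families are described apart.

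Both families join acyl groups to plant metabolites, but from different donors. SCPL proteins share the fold of vacuolar peptidases, and some of them have become acyltransferases that take the acyl group from a glucose ester. In tea, enzymes of this kind add the galloyl group to catechins. BAHD acyltransferases are cytosolic enzymes that use acyl-CoA thioesters, and in plants they make chlorogenic acid and the shikimate esters on the way to lignin, acylate anthocyanins and build the aliphatic-aromatic esters of suberin in roots.

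The roots came from 2 genotypes of tea, the low-K tolerant “1511” and the intolerant “1601”, and their RNA was sequenced. Each genotype is a single individual of an F1 cross multiplied as cuttings, so a difference between them is one between 2 clones. After 60 days with K in split hydroponic boxes that each held several plants, roots received for 5 days 1 mM K2SO4 in both compartments (U.NK), 0 mM in both (U.SK), or 1 mM on one side (Sp.NK) and 0 mM on the other (Sp.SK) of the same plants. Each of the 8 groups had 3 libraries, 24 in all. The sources do not say which boxes the replicate numbers stand for, so the p-values below measure only the spread between these libraries.

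Reads counted on genes ranged from 13214833 to 26309637 per library, with a median of 18066086. The first principal component of log2 values carried 58.1% of the variance, and the genotypes lay apart on it. On the second, with 13.9%, “1511” U.NK replicate 2 (-95.0) lay among the “1511” U.SK libraries (-133.3 to -66.5) and away from U.NK replicates 1 (10.8) and 3 (76.1), and results that use U.NK of “1511” are therefore given with and without single U.NK libraries. Only roots were sampled, and genes of green tissue were nevertheless counted: the summed FPKM of 31 such genes was 531 to 805 in the “1511” libraries and 738 to 2618 in the “1601” libraries. In bulk root samples, fewer cells of a type cannot be told apart from less RNA per cell, and this holds for each level below.

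The families differed in gene structure. The 82 annotated SCPL genes had a median of 9 exons, from 1 to 25, and only 3 had at most 2 exons. Among the 164 annotated BAHD genes the median was 2 exons, 124 had at most 2 and 70 had a single exon. Median transcript lengths were close, 1304 bases for SCPL and 1326 for BAHD. Members were spread over 80 scaffolds (SCPL) and 130 scaffolds (BAHD), and 31 SCPL and 62 BAHD genes lay within 100 kb of another member, in 14 and 25 sets.

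Most members were low. FPKM, which scales reads by gene length and a library size, is used for levels of different genes. The library size behind the deposited values was not the plain total of counts. In “1511” it was 0.806 to 0.935 of that total on U.SK and 1.05 to 1.11 on Sp.SK. A mean FPKM of at least 10 over the 24 libraries was reached by 23 SCPL and 26 BAHD genes, and 42 SCPL and 107 BAHD genes stayed under 1. After the filter on low counts 83 SCPL and 100 BAHD genes were tested. The 22 SCPL genes left out never had more than 33 counts in a library and the 80 BAHD genes never more than 32, and 8 and 26 of them had no count at all.

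Family sums were taken from the deposited FPKM and were not computed on plain totals of counts. On the deposited scale the summed level of the SCPL family hardly moved. Its mean lay between 805 ± 40.6 FPKM (SD, n = 3) on Sp.SK of “1601” and 886 ± 92.7 on U.SK of “1511”, and the libraries of those groups, at 768 to 849 and 815 to 991, overlapped. The summed BAHD level was 1153 ± 54.6 on U.NK, 1174 ± 111 on Sp.NK, 1086 ± 140 on Sp.SK and 1052 ± 48.9 on U.SK of “1511”. In “1601” it was 1326 ± 104, 1654 ± 141, 1265 ± 147 and 1278 ± 69.8 in the same order. The 3 Sp.NK libraries of “1601”, at 1497 to 1768, were above every other library of the series, of which the highest had 1435.

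**Figure D1:**
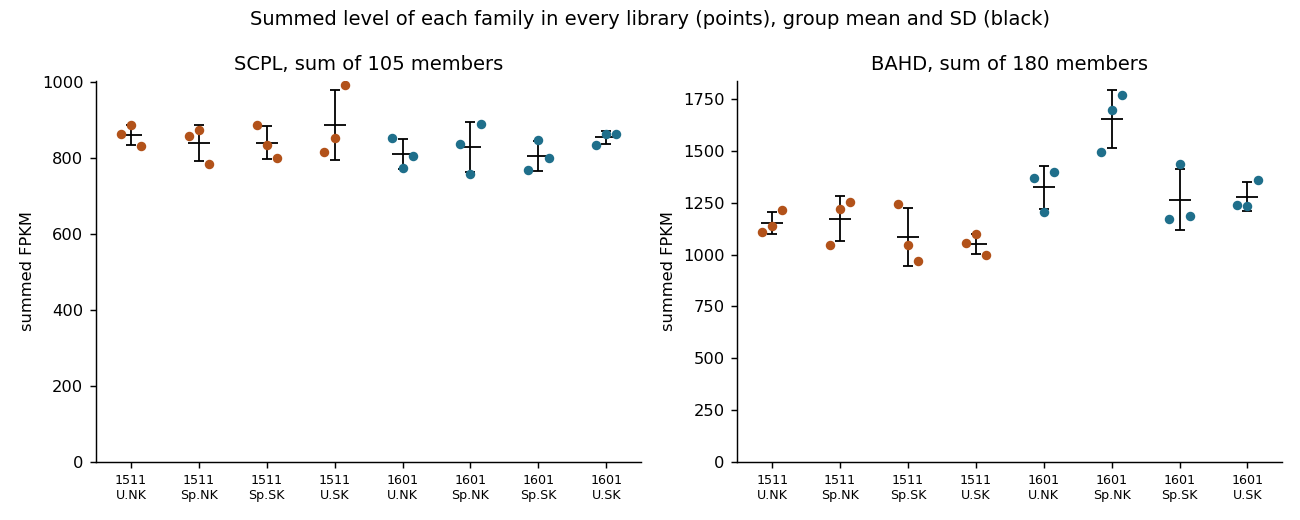
Summed FPKM of the 105 SCPL genes (left) and the 180 BAHD genes (right) in each of the 24 libraries, by group; points are libraries, the black bars are group means with SD (n = 3). SCPL sums lie between 758 and 991 throughout, whereas the BAHD sums of “1601” Sp.NK reach 1497 to 1768.

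The 5 genes of each family that were highest on average over all libraries held 24.7 to 42.5% of the SCPL sum and 26.2 to 56.3% of the BAHD sum of a library. For SCPL these were TEA029700, TEA034056, TEA027746, TEA006826 and TEA034055, with mean FPKM of 64.3, 56.9, 56.0, 48.5 and 45.9. For BAHD these were TEA021431, TEA022042, TEA032135, TEA011691 and TEA030717, with 212, 100, 92.8, 66.1 and 53.5. TEA021431 and TEA022042 each have 1 exon, and the description of TEA011691 also carries a receptor ligand-binding domain.

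TEA021431 (scaffold 1504, 2918521 to 2919864, minus strand) alone gave 21.8% of the summed BAHD level on U.NK, 25.5% on Sp.NK, 26.0% on Sp.SK and 6.64% on U.SK of “1511”. Its FPKM in replicates 1, 2 and 3 of “1511” was 283, 89.6 and 387 on U.NK, 194, 363 and 355 on Sp.NK, 350, 308 and 199 on Sp.SK, and 65.3, 71.4 and 72.4 on U.SK. All U.SK libraries were below every other library of “1511”. In “1601” the values were 121, 151 and 160 on U.NK, 218, 340 and 538 on Sp.NK, 169, 155 and 122 on Sp.SK and 119, 95.0 and 166 on U.SK, with Sp.NK above all others. Without this gene the BAHD sum of “1601” Sp.NK was 1230 to 1358, which overlapped the 1057 to 1248 of U.NK.

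The question of the first comparison was what complete K withdrawal does to the families. In “1511”, 7 of 83 SCPL genes were lower in U.SK than in U.NK and 1 was higher, and 12 of 100 BAHD genes were lower and 1 was higher (edgeR quasi-likelihood test, Benjamini-Hochberg adjusted p under 0.05, named a call below). Of all 35557 genes tested, 5.88% were called lower and 1.96% higher, so the SCPL shares were near this background and the BAHD share was above it on the lower side only. The median log2 fold change was 0.00 for SCPL, -0.55 for BAHD and 0.00 for all genes, and that of BAHD was -0.31 with genes of a group at 0 counts set to a bound, the change against a floor of 3 counts per library.

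Of the BAHD genes, TEA019377 fell most among those with counts above 3 in both groups. Its FPKM was 7.99, 0.968 and 18.0 on U.NK and 0.645, 0.719 and 0.272 on U.SK (log2 fold change -4.08 ± 0.73 SE, edgeR adjusted p = 0.0041). The groups did not overlap, which the rule for naming genes required, although U.NK replicate 2 came close. TEA019936, a single-exon gene, went from 1.49, 0.594 and 2.80 to 0.318, 0.120 and 0.148 (-3.07 ± 0.61, adjusted p = 0.00631). TEA010377 had 35, 7 and 57 counts on U.NK and 1, 1 and 0 counts on U.SK, so it was called (adjusted p = 0.00343) without a fold being given. The abundant TEA021431 fell too, by 1.88 ± 0.40 on the log2 scale (adjusted p = 0.0089). TEA009121 was the BAHD gene that rose, from 1.14, 1.40 and 1.58 to 4.93, 6.40 and 2.23 FPKM (1.69 ± 0.37, adjusted p = 0.00953).

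Newly assembled genes carry no annotated name and are given by position. Among SCPL genes one of these, on scaffold 35 from 476766 to 482268, fell most. It had 3.12, 0.654 and 11.9 FPKM on U.NK and 0.514, 0.261 and 0.612 on U.SK, and U.NK replicate 2 was again the nearest to U.SK (-3.49 ± 0.73, adjusted p = 0.00845). TEA014137 changed by -1.94 ± 0.41 (adjusted p = 0.00888) and the newly assembled SCPL gene on scaffold 11 (815276 to 817389) by -1.73 ± 0.41 (adjusted p = 0.0147). Of the abundant members, TEA006826 fell by 0.62 ± 0.15 on the log2 scale (adjusted p = 0.0151), from 55.8, 47.7 and 62.0 to 31.9, 39.7 and 37.0 FPKM. The SCPL gene that rose was TEA000768, from 2.99, 5.34 and 2.91 to 11.0, 8.02 and 16.6 FPKM (1.66 ± 0.45, adjusted p = 0.0276).

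These counts depended on single libraries of “1511”. Without U.NK replicate 2, 21 SCPL and 25 BAHD genes were called, with 18.2% of all genes. Leaving out U.NK replicate 3 gave 0 and 2 with 0.804%, leaving out U.NK replicate 1 gave 5 SCPL genes with 4.18%, and leaving out U.SK replicate 1 gave 2 and 5 with 1.71%, against 7.84% with all libraries. Fitted on the 12 libraries of “1511” alone none of all 32265 genes tested was called, so no member was, and each of the 13 calls of genes named here was lost under at least 1 alternative.

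In “1601” no member of either family was called between U.SK and U.NK, nor any of the 35557 genes (0.00%). At an unadjusted p under 0.05 there were 2 SCPL and 2 BAHD genes, and neither DESeq2 nor limma voom called a member. The difference between the genotypes in this response was called for 0 SCPL and 2 BAHD genes, TEA010377 (adjusted p = 0.0379) and TEA019377 (-4.37 ± 0.94, adjusted p = 0.0432), against 0.450% of all genes, and each call was lost when any 1 of 10 of the 12 libraries involved was left out.

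The second comparison set the starved side of a plant with K elsewhere (Sp.SK) against starvation on both sides (U.SK), so the roots compared had the same solution around them. In “1511”, 44 of 100 BAHD genes were higher on Sp.SK and 13 were lower, against 17.4% and 13.8% of all genes. The BAHD median was 1.57 on the log2 scale, or 0.90 with the bounds, and that of all genes was 0.00. For SCPL 20 of 83 were higher and 4 lower, with a median of 0.10, or 0.04 with the bounds. In 45 BAHD genes all Sp.SK libraries were above all U.SK libraries, which was so for 22.1% of all genes.

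**Figure D2:**
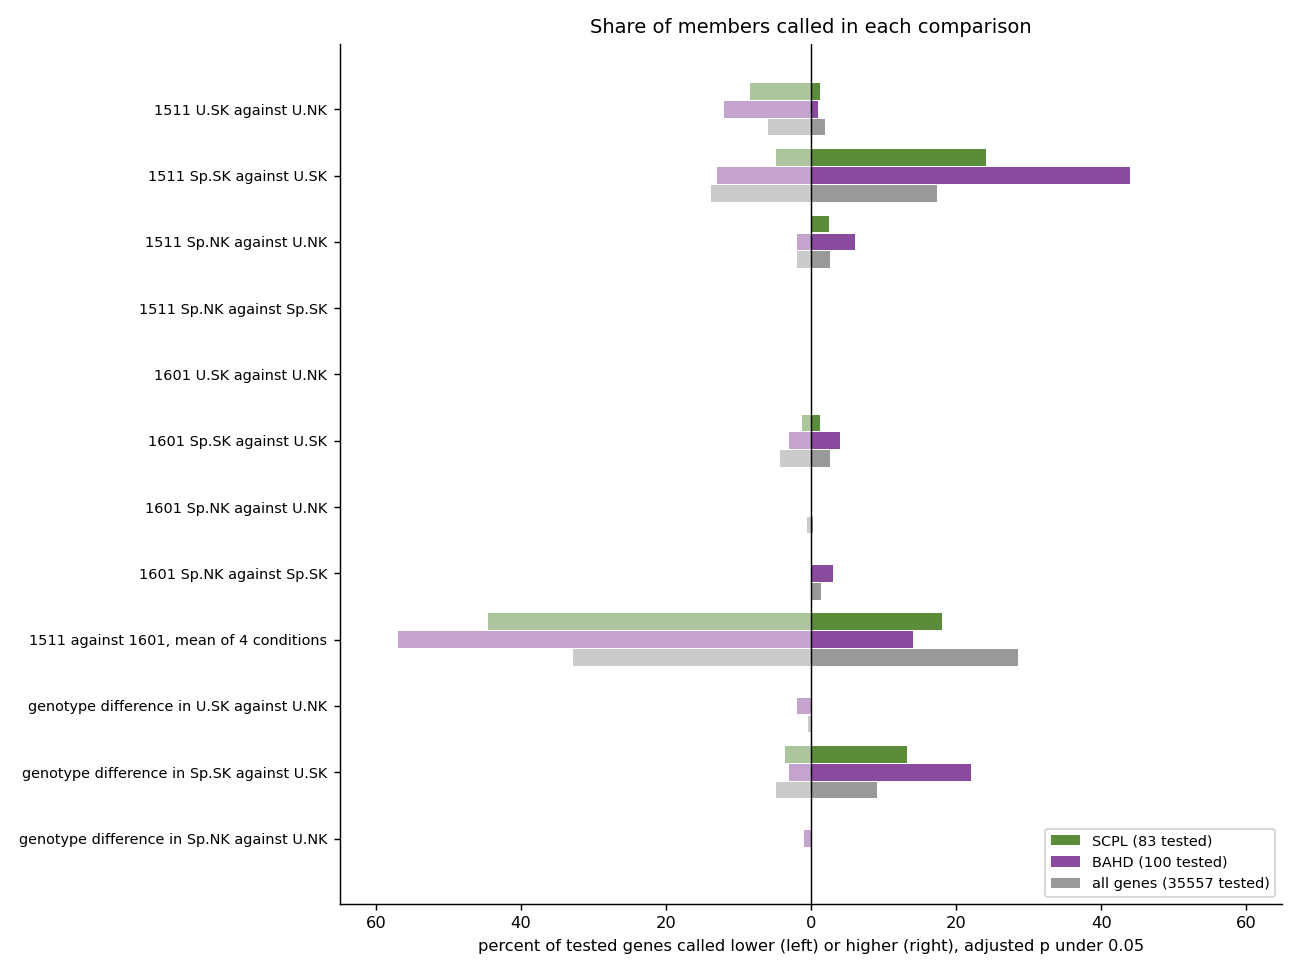
Percent of tested SCPL genes (green), BAHD genes (purple) and all genes (grey) called higher (to the right, dark) or lower (to the left, pale) in each of the 12 comparisons, with the first group named set against the second. The longest bar within a genotype is that of BAHD genes higher in Sp.SK than in U.SK in “1511”, 44 of 100.

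Of the 44 BAHD genes that rose, 9 had no count in any U.SK library of “1511” and 17 had at most 3 counts in each. Of the 20 SCPL genes that rose, 2 had no count there. Among all tested members, no count was found in any of the 3 U.SK libraries for 15 of the 100 tested BAHD genes and 7 of the 83 SCPL genes, against 3.30% of all genes tested. For BAHD this held for 5 genes on U.NK, 2 on Sp.NK and 1 on Sp.SK of “1511”, and for SCPL for 4 genes on each, where the shares of all genes were 2.28 to 2.33%. The 4 SCPL genes were at 0 in all groups of “1511”. In each group of “1601” there was no such member, against 2.06 to 2.33% of all genes tested. Genes at 0 in all of “1511” passed the count filter only through their “1601” counts, so part of this contrast comes from the filter. Of the 44 BAHD genes that rose, 34 had at most 2 exons, which is near the share of the family (124 of 164 annotated BAHD genes).

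Of the members at 0 on U.SK of “1511”, TEA029054 (scaffold 1881) and the single-exon TEA007063 (scaffold 3161) rose most on Sp.SK against the count floor. TEA029054 had 0 FPKM in the U.SK libraries of “1511”, 0.219, 0.0426 and 0.826 on U.NK, 6.08, 2.77 and 15.2 on Sp.NK and 10.0, 2.37 and 2.18 on Sp.SK. In “1601” all 12 libraries had it, at 0.898 to 14.9 FPKM. TEA007063 had 0 FPKM on U.SK of “1511”, 0.152, 0 and 0.860 on U.NK, 2.89, 1.12 and 10.1 on Sp.NK and 8.06, 1.25 and 1.98 on Sp.SK, and 1.98 to 39.2 in “1601”. The Sp.SK libraries thus lay above both homogeneous groups of “1511” for these genes, although replicate 1 was several times the others.

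Against a floor of 3 counts per library, TEA029054 was at least 30.4-fold and TEA007063 at least 22.7-fold higher in Sp.SK than in U.SK of “1511” (edgeR adjusted p = 0.0014 and 0.00456). TEA004784 (scaffold 1265), with 7.37, 0.384 and 0.629 FPKM on Sp.SK, was at least 17.6-fold higher (adjusted p = 0.0103), and this call was lost without Sp.SK replicate 1 (adjusted p = 0.106). The newly assembled single-exon BAHD gene on scaffold 10447 (2 to 2163) was at least 6.65-fold higher (adjusted p = 0.00998), a call also lost without Sp.SK replicate 1 (adjusted p = 0.0756). With limma voom the adjusted p of TEA007063 was 0.0566, that of TEA004784 0.116 and that of the gene on scaffold 10447 0.0501.

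These 4 genes lie on different scaffolds and shared a profile, which was noticed after their values were seen. Pearson's r of log2(FPKM + 1) over the 24 libraries was 0.896 to 0.954 for their 6 pairs, against a median of 0.16 over the 4950 pairs of tested BAHD genes. All 4 also had their lowest “1601” value in Sp.SK replicate 1, where TEA007063 had 1.98 FPKM against 39.2 and 13.5 in replicates 2 and 3. The libraries are shared by all pairs, so this is a description of these samples. Other BAHD genes had a similar pattern of counts. A newly assembled one on scaffold 3141 had 0 counts on U.SK of “1511”, and 26, 664 and 291 in replicates 1, 2 and 3 of “1601” Sp.SK. TEA007054 also had 0 counts on U.SK of “1511”, and 3, 142 and 58 in those “1601” libraries.

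Other genes had counts in both groups. TEA019377 rose from 0.645, 0.719 and 0.272 FPKM on U.SK to 18.2, 15.7 and 8.94 on Sp.SK of “1511” (4.75 ± 0.74, adjusted p = 0.000292), and its “1601” values on these sides were 3.36 to 5.52. TEA019936 rose by 4.44 ± 0.60 (adjusted p = 0.000145), and TEA010682, which overlaps TEA010665 on the other strand, went from 1, 2 and 3 counts to 167, 52 and 59 (adjusted p = 0.000201), too few on U.SK for a fold. TEA021431 rose by 2.05 ± 0.40 (adjusted p = 0.0013). None of these 4 calls was lost under any of the 12 alternatives run for them, which include leaving out each of the 6 libraries.

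The BAHD genes that were lower in Sp.SK than in U.SK were fewer and more abundant. TEA022042 (scaffold 1309, 815322 to 816686, minus strand) had 252, 226 and 189 FPKM on U.SK and 62.1, 82.3 and 69.7 on Sp.SK of “1511” (-1.62 ± 0.42, adjusted p = 0.00775). TEA021516 (scaffold 626, 1 exon) had 121, 110 and 37.3 against 31.8, 27.6 and 23.0 (-1.68 ± 0.36, adjusted p = 0.00216), and TEA009121 had 4.93, 6.40 and 2.23 against 1.62, 1.20 and 0.894 (-1.82 ± 0.37, adjusted p = 0.00151). In each of the 3 genes the groups did not overlap, which the rule for naming genes required, and no alternative ended these calls.

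In the deposited FPKM the opposite movements left the sum of the family nearly where it was. Sums on plain totals of counts were not computed. Together the 44 genes that rose had 119 ± 10.1 FPKM on U.SK and 497 ± 136 on Sp.SK, and the 13 that fell had 603 ± 85.0 and 253 ± 14.7 (SD, n = 3). Their median mean FPKM over the 24 libraries was 4.34 for the first set and 18.2 for the second. These sets were formed from the same comparison, so the sums are descriptive. TEA021431 was among the genes that rose. Without it the BAHD sum of “1511” was 928 to 1026 FPKM on U.SK and 739 to 892 on Sp.SK.

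**Figure D3:**
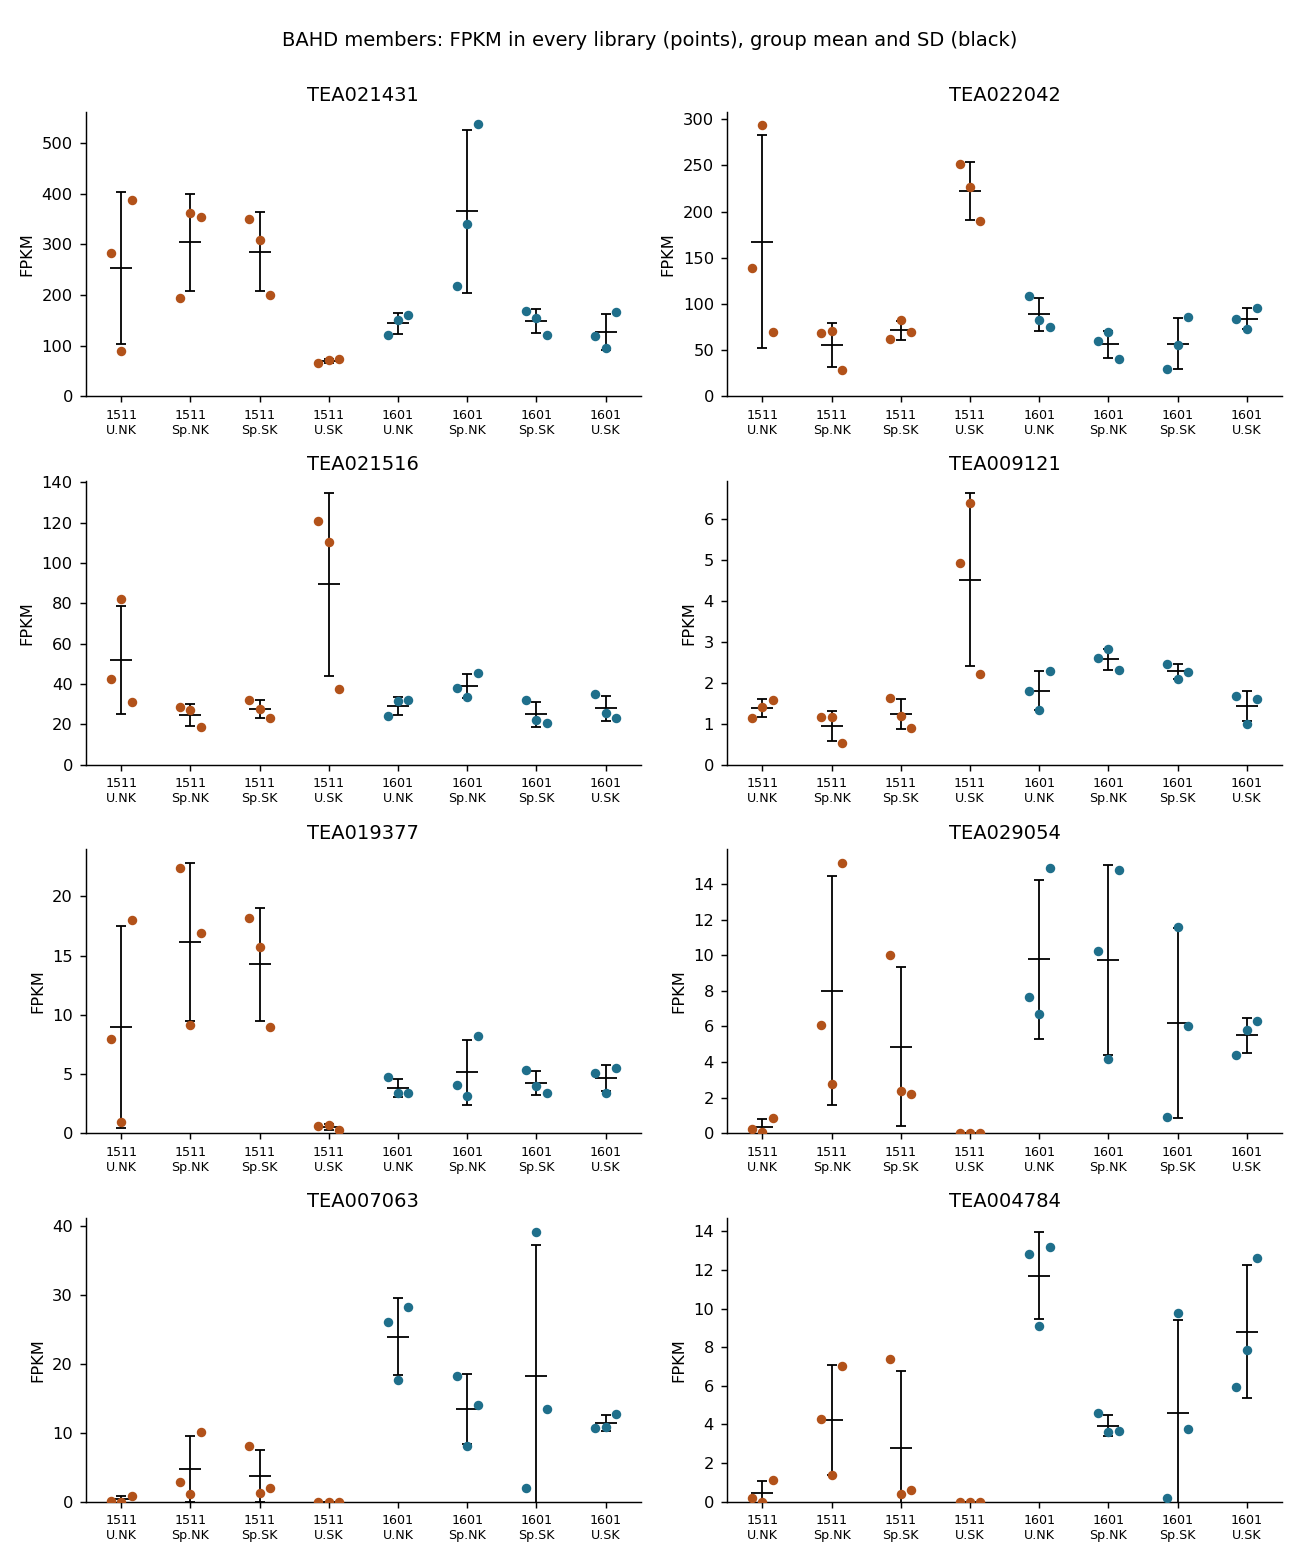
FPKM of 8 BAHD genes in each library, by group; points are libraries, black bars are group means with SD (n = 3), and each panel has its own axis from 0. In “1511” TEA022042, TEA021516 and TEA009121 have their highest group mean on U.SK (189 to 252, 37.3 to 121 and 2.23 to 6.40), although TEA022042 reaches 294 in U.NK replicate 2, and TEA029054, TEA007063 and TEA004784 are at 0 on U.SK.

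SCPL genes moved less. The newly assembled SCPL gene on scaffold 35 rose from 0.514, 0.261 and 0.612 FPKM on U.SK to 8.94, 7.65 and 4.68 on Sp.SK of “1511” (3.93 ± 0.74, adjusted p = 0.000986). TEA009646 had 0.182, 0.343 and 0.0468 on U.SK and 1.40, 1.98 and 1.05 on Sp.SK (2.99 ± 0.67, adjusted p = 0.00299), and TEA034057 rose by 2.70 ± 0.76 (adjusted p = 0.0117), a call lost without Sp.SK replicate 1 (adjusted p = 0.0539). TEA014137 rose by 1.90 ± 0.41 (adjusted p = 0.00243), and its neighbour TEA014154 on scaffold 1182 by 1.99 (adjusted p = 0.00656). Likewise the newly assembled gene on scaffold 11 and its neighbour TEA018746 rose by 1.82 and 1.71 (adjusted p = 0.00296 and 0.00186). TEA014154 and TEA018746 were picked for their place after their values were seen.

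Of the abundant SCPL genes, TEA006826 was 0.48 ± 0.15 higher (log2 scale, adjusted p = 0.0177) and TEA034056 fell by 0.55 ± 0.16 (adjusted p = 0.0137), with 41.0, 56.4 and 59.0 FPKM on Sp.SK against 80.2, 71.6 and 80.5 on U.SK. Both calls were lost without Sp.SK replicate 1 or without U.SK replicate 1. TEA027746, with 30.3, 62.6 and 45.0 on Sp.SK against 106, 133 and 124 on U.SK, did not pass (adjusted p = 0.0623) although the groups did not overlap, and TEA034055 stayed between 37.3 and 56.6 FPKM in every library of “1511”. TEA021977, which overlaps TEA021988 on the other strand, was lower (-1.26 ± 0.46, adjusted p = 0.0451) but lost the call under 7 of 12 alternatives.

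The 57 BAHD calls became 38 to 55 when each library was left out, 41 with the 12 libraries of “1511” alone, and 45 with limma voom, of which 31 were higher. For SCPL, 24 calls became 13 without Sp.SK replicate 1 and 17 to 21 otherwise. The share of all genes called, 31.1% here, was 18.4% without Sp.SK replicate 1, 17.4% without U.SK replicate 1 and 21.0 to 31.5% without each other library, 22.7% with the 12 libraries and 40.3% with limma voom.

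**Figure D4:**
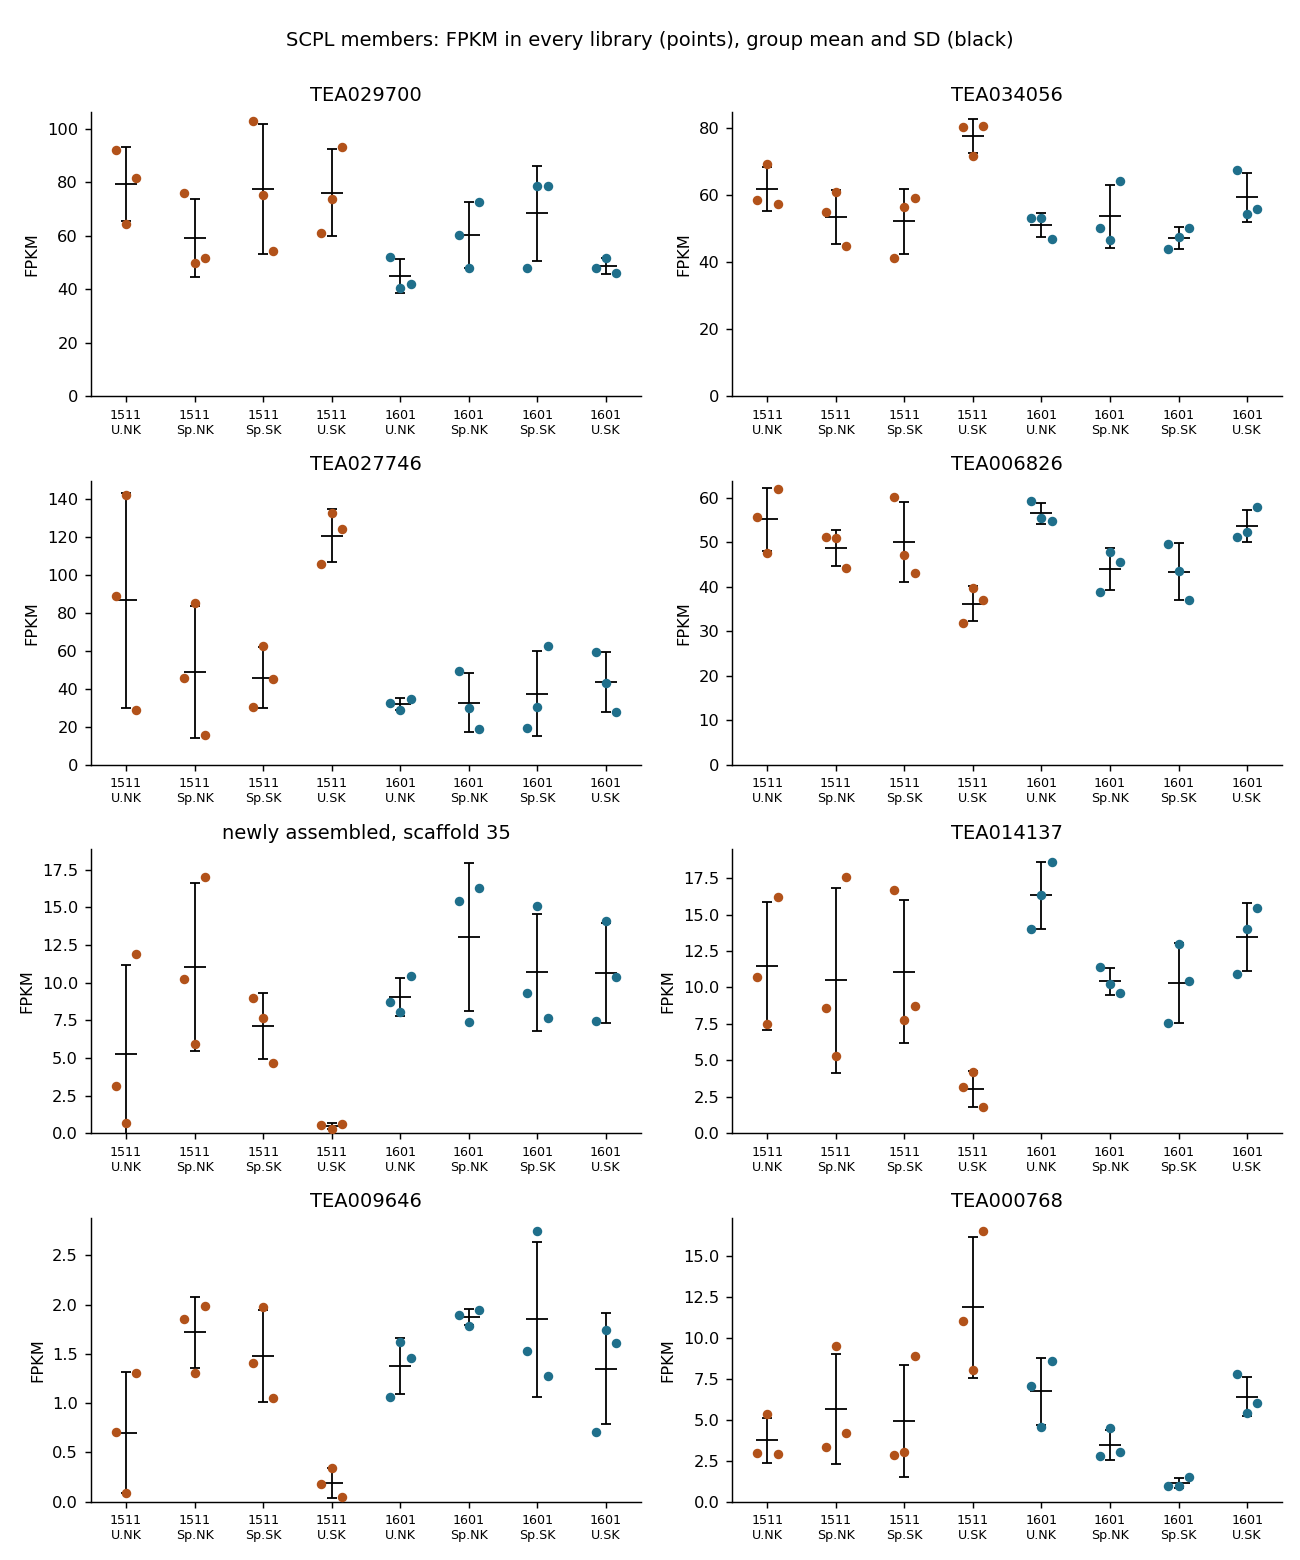
FPKM of 8 SCPL genes in each library, by group; points are libraries, black bars are group means with SD (n = 3), and each panel has its own axis from 0. The group means of the newly assembled SCPL gene on scaffold 35, TEA014137 and TEA009646 are lowest on U.SK of “1511”, at 0.261 to 0.612, 1.77 to 4.19 and 0.0468 to 0.343, although TEA009646 also has 0.0870 in U.NK replicate 2.

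In “1601” the same comparison called 1 SCPL gene higher and 1 lower, and 4 BAHD genes higher and 3 lower, against 2.58% and 4.24% of all genes, so the shares were near the background. TEA030036, a BAHD gene of 2 exons, had 11.9, 18.8 and 19.2 FPKM on U.SK and 49.4, 49.6 and 30.8 on Sp.SK (1.37 ± 0.23, adjusted p = 0.00265). The single-exon TEA014567 had 13.2, 10.8 and 10.6 on U.SK and 5.85, 6.54 and 6.24 on Sp.SK (-0.90 ± 0.17, adjusted p = 0.00545). The SCPL gene TEA000768 had 7.78, 5.44 and 6.06 on U.SK and 0.960, 0.950 and 1.50 on Sp.SK (-2.49 ± 0.48, adjusted p = 0.0052). These 3 genes kept their calls under all 12 alternatives. They had no overlap between groups, which the rule for naming genes required.

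The other BAHD calls in “1601”, of TEA010682 (1.93 ± 0.46), TEA010375 (1.56 ± 0.42), TEA010805 (-1.63 ± 0.44) and the abundant TEA030717 (-1.02 ± 0.22, with 63.3, 61.1 and 98.1 FPKM on U.SK and 27.6, 35.6 and 46.6 on Sp.SK), and that of the SCPL gene TEA034049 (1.24 ± 0.33), which overlaps TEA034030 on the same strand, were each lost without 2 to 6 of the single libraries. Leaving out 1 library gave 1 to 3 SCPL calls, with 1 without Sp.SK replicate 2, U.SK replicate 1 or U.SK replicate 2. For BAHD it gave 2 to 6, with 2 without Sp.SK replicate 1 or U.SK replicate 3 and 3 without U.SK replicate 1. The share of all genes called was 6.82%, and 1.83% without Sp.SK replicate 1, 3.54% without Sp.SK replicate 2, and 2.13, 2.77 and 3.68% without U.SK replicates 1, 2 and 3. With limma voom and quality weights 30 SCPL and 45 BAHD genes were called, and 35.5% of all genes.

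The difference between the genotypes in the response of Sp.SK against U.SK was tested directly. It was positive (the log2 change in “1511” minus that in “1601”) for 22 of 100 BAHD and 11 of 83 SCPL genes, and negative for 3 and 3, against 9.15% and 4.86% of all genes. TEA019377 differed by 4.89 ± 0.94 (adjusted p = 0.00265), TEA019936 by 4.85 ± 0.77 (adjusted p = 0.000736) and the newly assembled SCPL gene on scaffold 35 by 3.93 ± 0.94 (adjusted p = 0.00983). TEA009121 differed in the other direction (-2.50 ± 0.51, adjusted p = 0.00416), with 1.67, 1.00 and 1.60 FPKM on U.SK and 2.47, 2.09 and 2.28 on Sp.SK of “1601”. These 4 differences were among the 8 of 21 calls of named genes in this comparison that were kept under all 17 alternatives. Each of the others was lost under at least 1. The 3 largest positive BAHD differences among these calls were those of TEA004784, TEA029054 and TEA007063. These genes had no count on U.SK of “1511”, so no fold is given.

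The count of calls was less steady than the differences kept under all alternatives. The 25 BAHD calls became 10 without U.SK replicate 1 of “1511”, 11 without Sp.SK replicate 1 of “1511”, 11 without U.SK replicate 3 of “1601”, and 16 without U.SK replicate 2 of “1511” or Sp.SK replicate 3 of “1601”. The 14 SCPL calls became 5 without Sp.SK replicate 1 of “1511”, 7 without U.SK replicate 3 of “1601”, 8 without U.SK replicate 1 of “1511” or U.SK replicate 2 of “1601”, and 9 without Sp.SK replicate 2 of “1511” or Sp.SK replicate 3 of “1601”. Over all genes the share called moved from 14.0% to 7.75% without U.SK replicate 1, 8.02% without Sp.SK replicate 1, 9.23% without U.SK replicate 2 and 11.3% without Sp.SK replicate 2 of “1511”. It was 9.08, 9.47 and 9.66% without U.SK replicate 3, U.SK replicate 2 and Sp.SK replicate 3 of “1601”.

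The third comparison asked whether roots with K differ when the other side of the plant has none (Sp.NK against U.NK). In “1511” 2 SCPL genes were higher and none lower, and 6 BAHD genes were higher and 2 lower, against 2.67% and 1.94% of all genes. The BAHD gene TEA013339 (scaffold 4145) had 12.4, 3.34 and 27.4 FPKM on U.NK and 45.4, 37.9 and 82.5 on Sp.NK (1.94 ± 0.47, adjusted p = 0.0326). TEA029054 rose as well (4.45 ± 0.98, adjusted p = 0.0273), as did the gene on scaffold 10447, whose 1, 0 and 3 counts on U.NK give no fold (adjusted p = 0.0469). TEA022042 fell by 1.59 ± 0.42 (adjusted p = 0.0412) and TEA000897, a 12-exon gene whose description also carries a PP-loop domain, fell by 0.71 ± 0.19 (adjusted p = 0.0383).

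The SCPL genes that rose on Sp.NK were TEA003790 (1.12 ± 0.27, adjusted p = 0.0326) and TEA029674 (0.89 ± 0.18, adjusted p = 0.0224), the latter also annotated with an Isy1-like splicing domain. TEA029674 had 6.49, 5.52 and 7.31 FPKM on U.NK and 9.73, 13.4 and 12.6 on Sp.NK, without overlap, which the rule for naming genes required. None of the 8 calls of genes named in this comparison held under every alternative. BAHD calls numbered 0 without U.NK replicate 1, U.NK replicate 2 or Sp.NK replicate 3, 3 without Sp.NK replicate 2 and 30 without U.NK replicate 3. SCPL calls numbered 0 without U.NK replicate 1, U.NK replicate 2, Sp.NK replicate 2 or Sp.NK replicate 3, and became 4 on dropping Sp.NK replicate 1 and 11 on dropping U.NK replicate 3. The share of all genes called moved too, from 4.61% to 0.00275, 0.0633 and 16.8% without U.NK replicates 1, 2 and 3 and to 5.99, 0.557 and 0.00824% without Sp.NK replicates 1, 2 and 3.

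In “1601” no member was called between Sp.NK and U.NK by edgeR, against 0.900% of all genes, with 9 SCPL and 14 BAHD genes at an unadjusted p under 0.05. DESeq2 called 2 and 5 with 3.70% of all genes, and limma voom 8 and 10 with 12.8%. Leaving out Sp.NK replicate 2 gave 1 SCPL and 2 BAHD calls with 1.89% of all genes. The genotype difference in this response was called for 1 BAHD gene, a newly assembled single-exon gene on scaffold 2379 from 346599 to 348436 (-2.71 ± 0.53, adjusted p = 0.0401), against 0.231% of all genes. It had 19.1, 6.23 and 15.4 FPKM on U.NK and 8.39, 2.57 and 5.24 on Sp.NK of “1511”, and 19.4, 16.6 and 22.4 on U.NK and 45.8, 55.0 and 52.0 on Sp.NK of “1601”. The “1601” groups did not overlap, and the “1511” groups did. The call was lost when any 1 of 8 of the 12 libraries involved was left out, and the count of BAHD calls was 8 without U.NK replicate 3 of “1511”, where 2.52% of all genes were called.

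The sides of one plant were then compared (Sp.NK against Sp.SK). In “1511” no member and none of the genes tested (0.00%) were called by edgeR, DESeq2 and limma voom called no member either, and 3 SCPL and 4 BAHD genes had an unadjusted p under 0.05. In “1601” 3 BAHD genes were higher on Sp.NK and none lower, and no SCPL gene was called, against 1.31% of all genes higher and 0.0337% lower. At an unadjusted p under 0.05 there were 7 SCPL genes. DESeq2 called 1 SCPL gene with 2.78% of all genes, and limma voom 4 with 8.61%.

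The 3 genes were single-exon BAHD genes. The gene on scaffold 2379 had the values given above on Sp.NK and 10.7, 17.3 and 15.2 FPKM on Sp.SK (1.83 ± 0.38, adjusted p = 0.0156). TEA014564 and TEA014567 lie on scaffold 933, with starts at 258043 and 243164 on the plus strand. TEA014564 had 35.9, 43.4 and 41.5 on Sp.NK and 14.5, 14.1 and 13.9 on Sp.SK (1.52 ± 0.28, adjusted p = 0.00898), and TEA014567 had 13.1, 13.8 and 11.8 against 5.85, 6.54 and 6.24 (1.06 ± 0.17, adjusted p = 0.00563). In all 3 the sides did not overlap, which the rule for naming genes required. The calls numbered 0 without Sp.SK replicate 1, where 0.0606% of all genes were called, and 1 without Sp.SK replicate 2, where 0.404% were.

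The genotypes were compared last over all conditions. Averaged over the 4 conditions, 57 of 100 BAHD genes were lower and 14 higher in “1511” than in “1601”, and 37 of 83 SCPL genes were lower and 15 higher, against 32.8% of all genes lower and 28.5% higher. In either direction 62.7% of SCPL genes and 71.0% of BAHD genes were called, and 61.3% of all genes, so the SCPL share was near the background. The median log2 difference was -0.90 for BAHD, -0.38 for SCPL and -0.04 for all genes. For 13 SCPL and 8 BAHD genes all 12 “1511” libraries were below all 12 “1601” libraries, and for 6 and 2 they were above, where 6.28% and 5.88% of all genes did so. The BAHD share without overlap was thus near the background. Among the genes called lower and without overlap, 4 SCPL and 3 BAHD genes had at most 3 counts in every “1511” library. They passed the count filter only through “1601”, so their direction was fixed by the filter. No tested member had so few counts in every “1601” library.

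**Figure D5:**
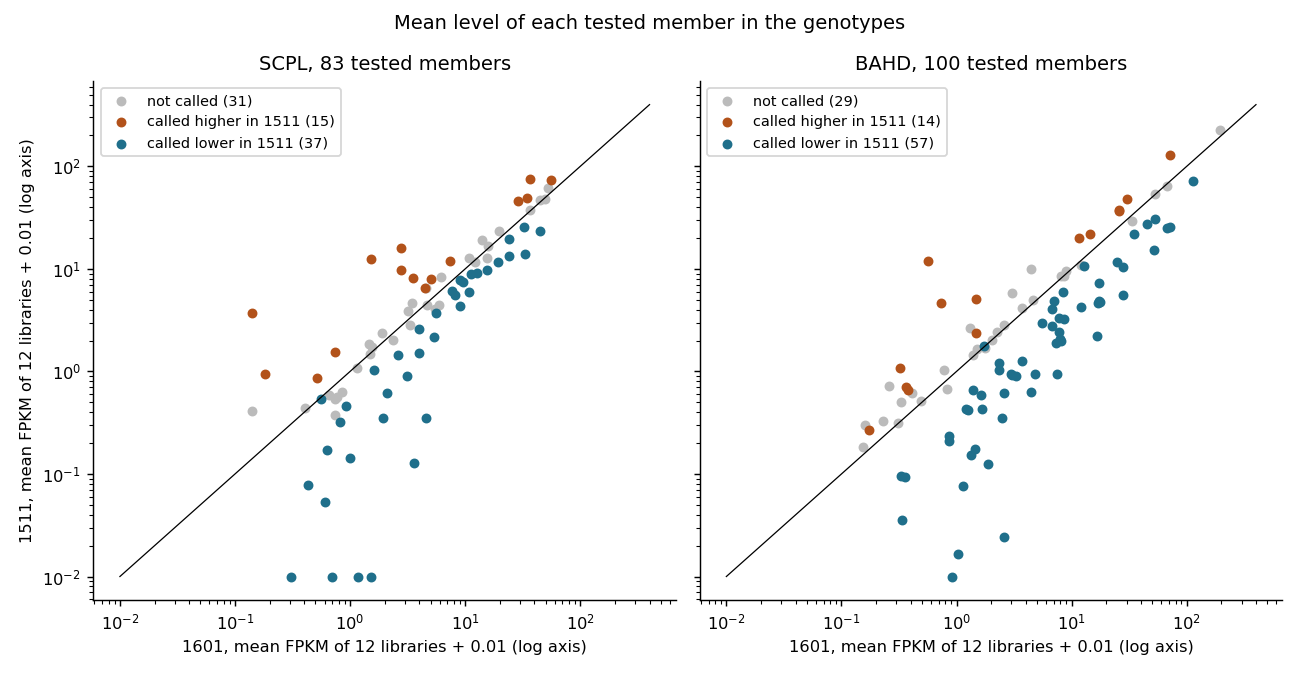
Mean FPKM over 12 libraries of each tested SCPL (left) and BAHD (right) gene in “1601” (horizontal) and “1511” (vertical), both axes logarithmic with 0.01 added so that zeros can be drawn; the line marks equal levels. Points below the line are lower in “1511”: 37 SCPL and 57 BAHD genes were called so, and 4 SCPL genes and 1 BAHD gene lie at 0 in “1511”.

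The SCPL gene TEA001673 (scaffold 257) had a lowest, median and highest FPKM of 2.15, 3.06 and 7.9 in “1511” and of 0, 0.105 and 0.478 in “1601” (4.85 ± 0.40, adjusted p = 2.19e-09). TEA034028 had 5.15, 11.3 and 20.1 against 0.936, 1.37 and 2.75 (2.97 ± 0.16, adjusted p = 4.11e-12). In the other direction, a newly assembled gene on scaffold 8295 (13439 to 18054), which also carries an exonuclease domain, had 0, 0.131 and 0.354 against 2.41, 3.72 and 4.15 (-5.04 ± 0.30, adjusted p = 1.62e-11), and TEA018744 had 0.0982, 0.273 and 0.736 against 2.94, 4.34 and 7.77 (-3.72 ± 0.25, adjusted p = 1.08e-10). The 2 genotypes did not overlap in any of these 4 genes, which the rule for naming genes required.

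Some SCPL genes were not found in “1511” at all. No read was counted in its 12 libraries for TEA003786 and 3 newly assembled genes, of which the one on scaffold 5484 (155767 to 157173) had 19 to 64 counts in the “1601” libraries and was at least 11.2-fold higher there. These 4 genes passed the count filter only through “1601”, so their direction was fixed by the filter. In single groups of “1511”, 2.28 to 3.30% of all genes tested had no count. The largest SCPL neighbour set, on scaffold 2990 (475282 to 714194), holds 4 genes. Its newly assembled members, which start at 663080 and 712516, were at 0 in “1511”, TEA023451 was lower there (-1.81 ± 0.22, adjusted p = 7.02e-07), and TEA023432 was at 0 only on U.SK of “1511”. Reads of near-identical copies could have been split between members, and a gene model absent from a genotype cannot be told apart from a silent one here.

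Among BAHD genes a newly assembled one on scaffold 3284 (4747 to 6877) had a lowest, median and highest FPKM of 5.08, 9.65 and 25.9 in “1511” and 0.121, 0.385 and 1.9 in “1601” (4.60 ± 0.26, adjusted p = 4.53e-12), and TEA012633 had 2.11, 3.82 and 13.7 and 0.0771, 0.767 and 1.22 (2.69 ± 0.31, adjusted p = 3.05e-07). TEA017543 had at most 1 count in each “1511” library and 2 to 87 in “1601”, so it passed the count filter only through “1601”. The newly assembled BAHD gene on scaffold 4659 (634883 to 637542) was lower in “1511” by 3.22 on the log2 scale with 0.0311, 0.592 and 1.51 against 2.39, 4.5 and 6.93 FPKM (-3.22 ± 0.28, adjusted p = 4.07e-09). TEA028105 was lower as well (-2.61 ± 0.17, adjusted p = 5.5e-11), and it overlaps TEA028100 on the other strand. The genotype calls of the genes given here with a difference, and of the SCPL genes above given with one, held under all 29 alternatives.

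The largest BAHD neighbour set, on scaffold 35 (667576 to 884717), holds TEA010805, TEA010790, TEA010822 and 2 newly assembled genes that overlap on opposite strands. The newly assembled gene on the plus strand (-1.25 ± 0.14, adjusted p = 1.57e-07), TEA010805 (-0.84 ± 0.22, adjusted p = 0.00252) and TEA010822 (-1.22 ± 0.22, adjusted p = 6.41e-05) were lower in “1511”, TEA010790 had 0 to 1.12 FPKM and was not called, and the newly assembled gene on the minus strand was not tested. Across the families, neighbours were somewhat more alike than other pairs. The median r of log2 values over the 24 libraries was 0.51 for 21 neighbouring BAHD pairs against 0.16 for all pairs, and 0.33 for 17 SCPL pairs against 0.04 for 3403.

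Genes of the pathways that make the substrates were counted in the same way, and so was the alpha/beta-hydrolase fold family, which is not one of these pathways. Of 18 tested genes of phenylpropanoid and flavonoid entry, which make the phenolic backbones, 14 were higher and 1 lower in Sp.SK than in U.SK of “1511” (median 2.07 on the log2 scale), where 17.4% of all genes were higher and 13.8% lower with a median of 0.00. Of the same genes 8 were lower in U.SK than in U.NK (5.88% of all genes), and 7 were higher in Sp.NK than in U.NK (2.67% of all genes). In “1601” these comparisons called 0 higher and 1 lower, 0 and 0. Of 10 shikimate-branch genes, 1 was higher and 1 lower in Sp.SK than in U.SK of “1511”. UDP-glycosyltransferases, among which are the enzymes that make glucose esters, had 74 of 241 higher and 31 lower there (median 0.38), and the alpha/beta-hydrolase fold family, to which carboxylesterases belong, 31 of 69 higher and 5 lower (median 1.19). Between Sp.SK and U.SK of “1601”, 3 UDP-glycosyltransferases were higher and 29 lower. Of the alpha/beta-hydrolase fold family 1 was higher and 7 were lower, against 2.58% and 4.24% of all genes.

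Markers of root cell types moved in the same comparison. On U.SK of “1511” the summed FPKM of 42 endodermis and Casparian strip genes was 2125 to 2411, against 971 to 1999 in the other “1511” libraries. Single genes of this list went mostly the other way. Of 32 tested, 9 were higher and 1 lower in Sp.SK than in U.SK of “1511” (median 0.34 on the log2 scale). Of all genes, 17.4% were higher and 13.8% lower there. Of 83 tested genes of dividing cells, 33 were higher and 7 lower in Sp.SK than in U.SK of “1511” (median 0.47), while their summed FPKM of 5807 to 7991 on Sp.SK overlapped the 6657 to 7279 on U.SK. The part of these cell types in the BAHD and SCPL results was not tested.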

How the data were processed

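The authors sequenced RNA of 24 root samples, filtered out adapter and low-quality sequence, and aligned with HISAT2 to the TPIA assembly. Its annotation was extended by genes newly assembled from these reads. The submitters' processing notes name CASAVA 1.7 and HISAT2 2.0.5. They deposited raw read counts per gene and FPKM values. The counting program and its strand setting are not given in the sources used here, so genes that overlap are uncertain. Deposited FPKM values scale counts by gene length and a library size that was 0.806 to 1.11 of the plain total of counts. They were used for levels only, and were neither logged nor tested except where log2(FPKM + 1) is named for a correlation.

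The counts were tested with edgeR 4.0.16 in R 4.3.3: TMM scaling, filterByExpr, 8 group means over 24 libraries (16 residual degrees of freedom), the quasi-likelihood test and Benjamini-Hochberg adjustment over 35557 genes, with calls at 0.05. Errors of log2 fold changes are standard errors. Tests were tried first on simulated data. Alternatives were DESeq2 size factors, no filter, a replicate block, the 12 libraries of 1 genotype, limma 3.58.1 voom with quality weights, DESeq2 1.42.0, and leaving out each library.

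Named genes were the 5 highest members by mean FPKM in each family, the 3 largest changes in each direction among called members with a mean of at least 1 CPM (without overlap between libraries, except for genotype differences in a response), and the largest set of neighbours within 100 kb. The members and lists were chosen with earlier results of these data known. The count floor was 3 per library. Replicate correlations of log2 values were 0.954 to 0.993. None of the gene identifiers was found in the reference table, so no sequences are shown, and scaffold positions are those of the deposited annotation.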

Additional observations from a re-analysis of the deposited data

Results flagged for a closer look

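The edgeR test of the difference between genotypes in a response called 0 SCPL and 2 BAHD genes for U.SK against U.NK, 14 and 25 for Sp.SK against U.SK, and 0 and 1 for Sp.NK against U.NK. The 24 results of genes named by the rule are given here. In the same order of responses, 0 of 2, 8 of 21 and 0 of 1 of these calls were kept under every alternative. For U.SK against U.NK these were the BAHD genes TEA010377 (adjusted p = 0.0379) and TEA019377 (adjusted p = 0.0432). For Sp.SK against U.SK the SCPL genes were TEA034057 (adjusted p = 0.0083), the newly assembled gene on scaffold 35 (0.00983), TEA014137 (0.0109), TEA006240 (0.045), TEA034028 (0.0355), TEA023432 (0.019), TEA006826 (0.0158) and a newly assembled gene with a kinase domain on scaffold 27797 (0.0437). The BAHD genes in that comparison were TEA004784 (adjusted p = 0.0226), TEA029054 (0.00983), TEA007063 (0.037), TEA011741 (0.0241), TEA009121 (0.00416), TEA021516 (0.0477), TEA010377 (0.00104), TEA019377 (0.00265), TEA019936 (0.000736), TEA010682 (0.0347), TEA021431 (0.0332), TEA028105 (0.0315) and TEA032135 (0.0218). For Sp.NK against U.NK it was the newly assembled BAHD gene on scaffold 2379 (adjusted p = 0.0401).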

How the results depend on the processing

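Of 133 calls of named genes, 68 were kept under every alternative run for them and 0 changed direction. The cause of each shift below was not tested. The quality weights of limma voom were 11.1, 0.269 and 0.473 for U.NK replicates 1, 2 and 3 of “1511”. Its calls that use this group thus rest largely on replicate 1. In the order SCPL then BAHD, limma voom with quality weights called 29 and 34 members between U.SK and U.NK of “1511”, 23 and 43 between Sp.NK and U.NK of “1511”, 30 and 45 between Sp.SK and U.SK of “1601”, 8 and 10 between Sp.NK and U.NK of “1601”, and 4 and 13 between Sp.NK and Sp.SK of “1601”. For the genotype difference it called 18 and 25 (U.SK against U.NK), 24 and 30 (Sp.SK against U.SK) and 15 and 26 (Sp.NK against U.NK). DESeq2 in the same order called 16 and 24, 6 and 19, 8 and 10, 2 and 5, and 1 and 5, and for the differences 1 and 12, 18 and 36, and 0 and 6. The 12 libraries of a genotype alone gave 0 and 0, 0 and 0, 10 and 14, 4 and 5, and 1 and 6. Shares of all genes moved too, in the same order to 37.9, 31.6, 35.5, 12.8, 8.61, 25.7, 31.9 and 13.5% with limma voom, 12.3, 11.6, 11.2, 3.70, 2.78, 3.80, 18.7 and 1.72% with DESeq2 and 0.00, 0.00, 12.9, 4.05 and 3.18% with the 12 libraries, from 7.84, 4.61, 6.82, 0.900, 1.34, 0.450, 14.0 and 0.231%.

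With the replicate block, SCPL and BAHD calls were 9 and 13 (U.SK against U.NK), 25 and 56 (Sp.SK against U.SK) and 3 and 10 (Sp.NK against U.NK) in “1511”, 2 and 6 (Sp.SK against U.SK) and 0 and 3 (Sp.NK against Sp.SK) in “1601”, and 51 and 71 between genotypes. The block gave 0 and 1, 15 and 24, and 0 and 1 for the genotype differences. In no comparison were all 3 same-numbered pairs above an r of 0.1: r was -0.29 to 0.49, above 0.1 in 6 of 24 pairs, and the own number was the best match in 10. For Sp.NK against U.NK of “1511” r was 0.066, 0.417 and 0.493 with the own number best in all 3, a hint from the data and not from the design.

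Leaving out 1 library gave, for SCPL and BAHD, 0 to 21 and 2 to 25 (“1511” U.SK against U.NK), 13 to 21 and 38 to 55 (Sp.SK against U.SK), 0 to 11 and 0 to 30 (Sp.NK against U.NK). In “1601” it gave 1 to 3 and 2 to 6 (Sp.SK against U.SK), 0 to 1 and 0 to 2 (Sp.NK against U.NK), and 0 to 0 and 0 to 4 (Sp.NK against Sp.SK). Between genotypes it gave 51 to 60 and 71 to 75, and for the differences 0 to 9 and 0 to 15, 5 to 14 and 10 to 29, and 0 to 2 and 0 to 8. The 22 SCPL and 80 BAHD genes under the count filter were not tested.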
